A study of Mus musculus with 31 samples.

Results

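The Polycomb repressive complexes were described here through 10 of their genes, *Ezh2*, *Ezh1*, *Eed*, *Suz12*, *Jarid2*, *Rnf2*, *Ring1*, *Pcgf3*, *Pcgf5* and *Cbx2*, in eyes of mouse embryos at E13.5. Every array probe that the files name after one of these genes was taken, which gave 16 of the 55681 probes on the array. Of all probes, 14052 passed a minimum of 500 for the WT female mean, a signal limit that the study names for its gene lists and that was applied here to this group's mean, and 10 probes of 8 of these genes were among them. The probes of *Ring1* and *Pcgf3* lay below it and are described by their level and by a fit over all probes. The genes lie on chromosomes 1, 5, 6, 7, 11, 13, 17 and 19, so none is X-linked.

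RNA of single eyes was hybridized to 1-colour arrays: 3 eyes of WT females (numbered 1, 2 and 4), 3 of WT males, 3 of Ftx KO males (*Ftx*-/Y) and 11 of Ftx KO females (*Ftx*-/-), with 1 array for each eye and 2 for each Ftx KO female eye. All mice were of a C57BL/6N background, and the mutants carried a targeted deletion of *Ftx* in every cell, made in embryonic stem cells, which also removes the expression of a pair of microRNAs that lie within the gene. The Ftx KO eyes taken were those that looked normal, and in all 4 groups the pigmented epithelium had been cut away. The study asked how the loss of *Ftx*, a gene of the X-inactivation centre, changes expression in each sex.

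Polycomb proteins keep genes silent by marking histones, and they form a pair of main complexes. In PRC2, EZH2 or EZH1 methylates lysine 27 of histone H3 and needs EED and SUZ12 to do so, while accessory subunits such as JARID2 guide it to its sites. PRC1 places ubiquitin on histone H2A through RNF2 or RING1 together with a PCGF subunit, and chromobox proteins such as CBX2 bind the methyl mark. On the inactive X chromosome, *Xist* RNA brings in PRC1 that holds PCGF3 or PCGF5, and PRC2 follows, with JARID2 as a link to the ubiquitin mark.

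*Ftx* itself, read by the probe A_55_P2175002, had a signal of 50.04 to 134 in WT females and 101 to 110 in WT males, against 13.2 to 18.6 in Ftx KO males and 8.25 to 37.4 in Ftx KO females, where it was well above background on 9 of 22 arrays. The dimmer probe of this gene (A_55_P2175007) exceeded background on 0 male arrays and checks only the females, with means of 40.5 in WT and 9.78 in Ftx KO eyes. The retinal progenitor, retinal neuron and lens markers that define the tissue were present in every group. All WT eyes and Ftx KO male eye 1 were on slide 1, slide 2 held Ftx KO male eyes 2 and 3 with Ftx KO female eyes 1 to 3, and slides 3 and 4 held the female eyes 4 to 7 and 8 to 11, and each slide was scanned on its own. No slide therefore held both WT and Ftx KO females, and in that comparison slide and genotype cannot be told apart directly. Some Ftx KO female eyes carried more RNA of other cells: the summed signal of 5 pigment genes was 2190 to 30300 in them and 3880 to 6080 in WT females, that of 7 mesenchyme genes 5400 to 37000 and 3820 to 5310, and 6 of 8 lens genes were lower than in WT females. Of the other marker lists 2 of 5 tested erythroid genes were higher (summed signal 160000 to 311000 against 179000 to 191000), as were 2 of 8 genes of cycling cells and 2 of 8 of retinal progenitors, and of 7 retinal neuron genes 2 were higher and 3 lower, in a comparison in which 35.0% of all tested probes were called and 16.8% called higher. All 5 pigment genes were well above background on every array, whereas *Twist1* of the mesenchyme genes was below it on every WT female array. In tissue of many cell types, fewer cells of a type and less RNA per cell cannot be told apart.

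The probes are 60 bases long. The sequences below show why some probes count as the same measurement and others do not. The brighter pair of *Pcgf5* probes, at mm9 chr19:36530623-36530682 and chr19:36530629-36530688 (plus strand, transcript NM_029508), are offset by 6 bases and share 54, so they are not independent readings. Their first 30 bases are given 5′ to 3′. Capitals mark the letters that both printed stretches hold, and the lower-case end of the second lies in the first probe too, beyond the stretch shown.
Pcgf5 A_55_P1996171: tggtttCTGAGCCACTGACCTATTCTTGGT
Pcgf5 A_55_P2150555: CTGAGCCACTGACCTATTCTTGGTaaactt
The third *Pcgf5* probe (A_52_P198473, transcript AK004240, chr19:36535120-36535179) begins 4432 bases beyond the end of that pair. Its last 30 bases and those of the *Suz12* probe (NM_199196, chr11:79847251-79847310, plus strand), on which the results turn, were as follows, with nothing capitalized.
Pcgf5 A_52_P198473: gtcattgttaatgacttagtctattaagaa
Suz12 A_51_P214796: tgcttaaaagaaggctagcattgtttgcac
The letters AATAAA, the most common polyadenylation signal, occur in 3 of the 10 tested probes of these genes (the strand on the array was searched) and in 2245 of all 14052 tested probes (16%). They are in the *Pcgf5* pair and in the representative probe of *Ezh1* (NM_007970, chr11:101052430-101052489, minus strand), and stand in capitals in the last 30 bases below.
Pcgf5 A_55_P1996171: aaacttttatgtaaaaaagAATAAAcaacc
Ezh1 A_55_P2082869: acctcttatctAATAAAgtgttaagactcc

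In Ftx KO females *Suz12* was higher than in WT females, and no other tested probe of these genes passed the test. This was 1 of 10 tested member probes, whereas 35.0% of all 14052 tested probes were called in that comparison and 16.8% were called higher (limma, adjusted p under 0.05). The catalytic subunits *Ezh2*, *Ezh1* and *Rnf2*, the PRC2 subunits *Eed* and *Jarid2*, the PRC1 subunit *Pcgf5* and the chromobox gene *Cbx2* had log2 differences between -0.06 and 0.11, with 95% intervals that together ran from -0.21 to 0.29, or from 0.862-fold to 1.22-fold. The median difference over the 10 member probes was 0.04, and that over all tested probes was -0.01. The median size of a difference, without its sign, was 0.05 for the member probes and 0.19 for all tested probes.

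**Figure D1:**
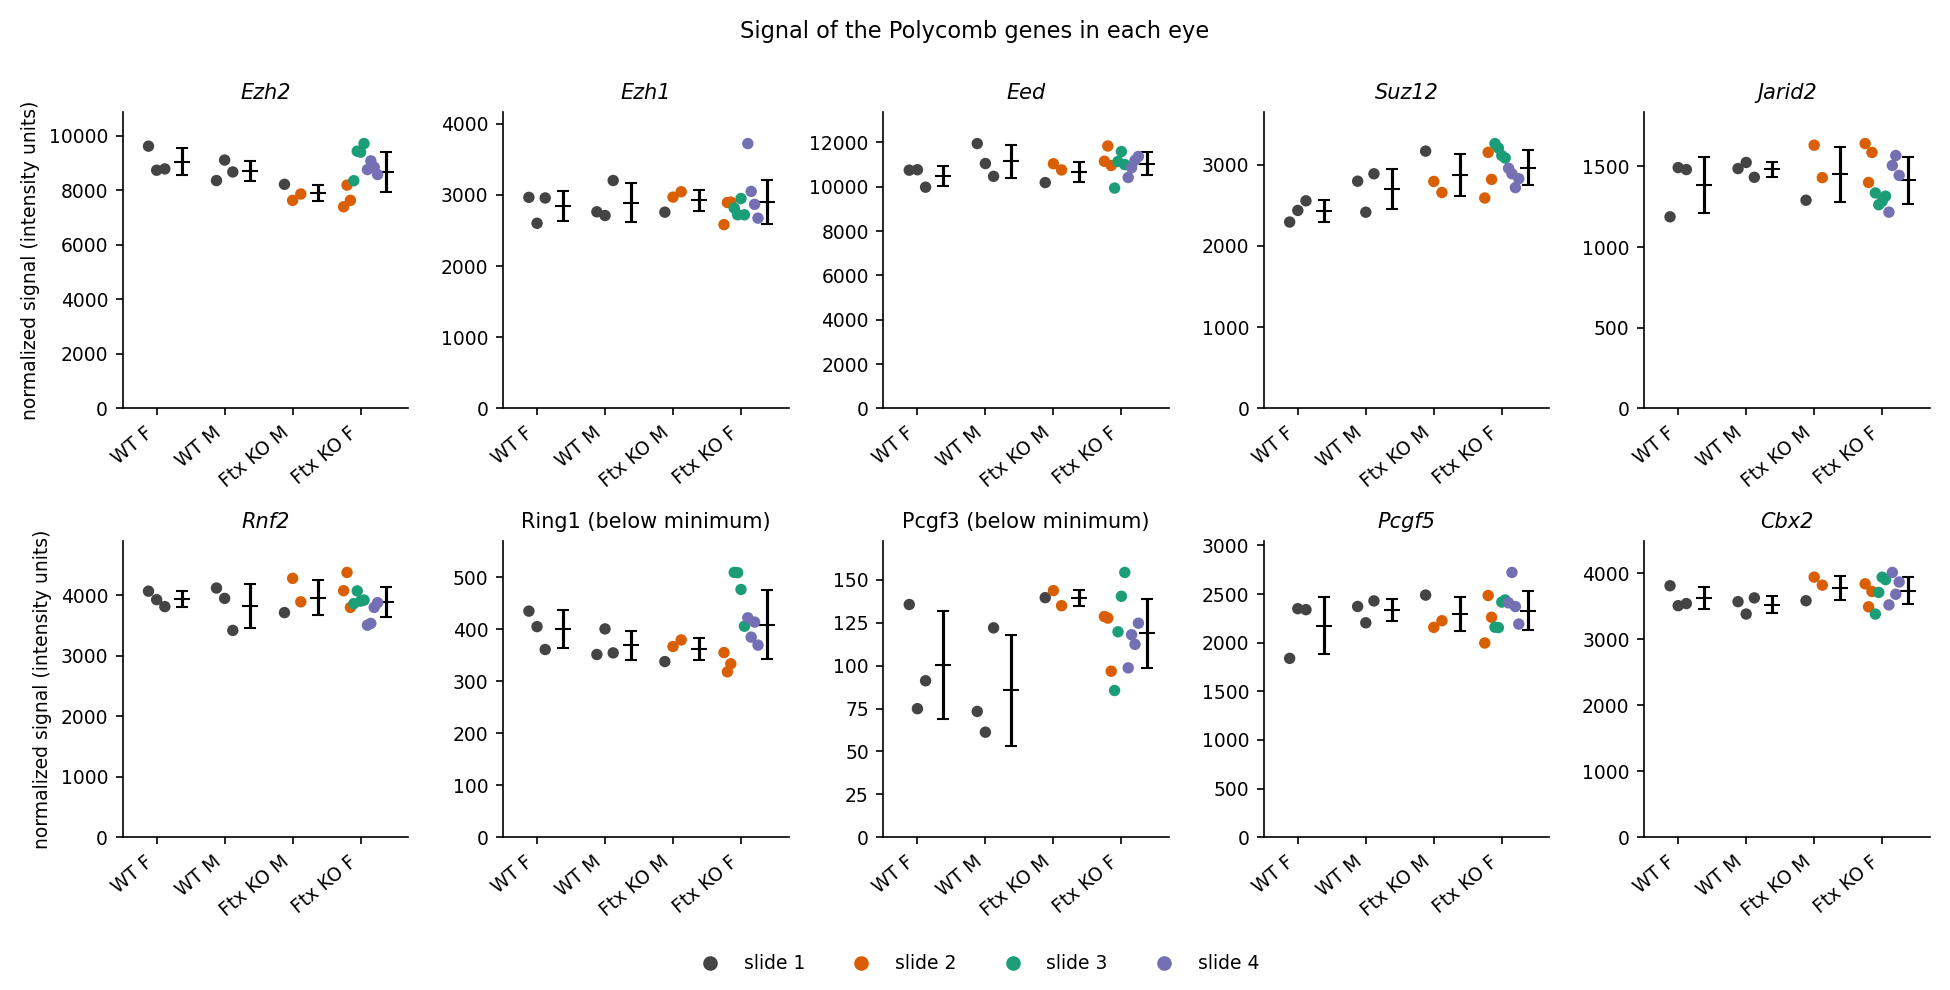
Normalized signal (intensity units, vertical axis from 0) of the representative probe of each of the 10 genes in each of the 20 eyes, by group, with points coloured by slide and the mean and SD beside them. The 11 Ftx KO female eyes (Ftx KO F) lay between 2590 and 3260 for Suz12, above the 3 WT female eyes (WT F), which reached 2555, while the ranges of the same groups overlapped for the other genes shown.

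*Suz12* encodes the subunit that holds PRC2 together. Its signal was 2294, 2437 and 2555 in WT females 1, 2 and 4, and in Ftx KO females it was 2590 at the lowest, 2955 at the median and 3260 at the highest. All 11 Ftx KO female eyes were above every WT female eye, and the share of all tested probes with such a separation was not counted. The means were 2429 ± 131 (SD, n = 3) and 2964 ± 215 (SD, n = 11), a log2 fold change of 0.29 (standard error 0.07, 95% interval 0.13 to 0.44, limma adjusted p = 0.00602). WT males had 2797, 2415 and 2888 and Ftx KO males 3167, 2794 and 2658, so the males of both genotypes overlapped each other and the Ftx KO females. The difference between Ftx KO males and WT males was 0.09 (95% interval -0.10 to 0.28, limma adjusted p = 0.738). WT females were 0.15 lower than WT males on the log2 scale (a difference of -0.15, interval -0.34 to 0.04), and all 3 WT female eyes were below the WT male mean. Between the sexes the change differed by 0.20 with an interval from -0.05 to 0.44 (limma adjusted p = 0.481), so a change particular to females was not shown.

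The *Suz12* difference depended on which WT eyes and which term for the slides were used. Without WT female eye 1, the lowest of the 20, it was 0.245 and the adjusted p 0.0509 (limma). With the slide as a fixed block it was 0.45 (standard error 0.14) and the limma adjusted p 0.131. That fit called 11 probes in all, 0.0783% of those tested. It joins WT to Ftx KO females only through the Ftx KO males, of which slide 1 held eye 1 alone. The Ftx KO females of slides 3 and 4 add nothing to its estimate. With the slide as a random block the *Suz12* difference was 0.34 (limma adjusted p = 0.0196). The eye number as a replicate block gave 0.295 and an adjusted p of 0.0674 (limma). Among Ftx KO females the mean *Suz12* signal was 2854 on slide 2, 3165 on slide 3 and 2847 on slide 4, each above the highest WT female. The Ftx KO male eye that shared slide 1 with the WT eyes had 3167, the highest of the males. Within that slide its log2 value was 0.23 above the 3 WT males, a comparison that rests on that single eye. The 6 Ftx KO female eyes whose pigment or mesenchyme signal lay above every eye of the other groups had a *Suz12* mean of 2959 ± 283 (SD, n = 6), and the remaining 5 had 2971 ± 125 (SD, n = 5). With only those 5 eyes the difference from WT females was 0.29 (limma adjusted p = 0.0155).

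*Ezh2* encodes the methyltransferase that predominates in dividing cells (probe A_55_P2041397, NM_007971, chr6:47480307-47480366, minus strand). Its signal was 9618, 8735 and 8784 in WT females and 8356, 9108 and 8672 in WT males. Ftx KO males had 8218, 7629 and 7864, and Ftx KO females 7395 at the lowest, 8759 at the median and 9713 at the highest. All 3 Ftx KO male eyes were below all 3 WT male eyes, whereas the Ftx KO females spanned both. Of the 10 tested member probes 1 separated the male groups, and the share of all tested probes that did was not counted. The Ftx KO male mean of 7904 ± 296 (SD, n = 3) stood against 8712 ± 378 (SD, n = 3) in WT males, a log2 difference of -0.14 (interval -0.33 to 0.05, limma adjusted p = 0.561). In that comparison 0 of the 10 member probes were called, and 0.0213% of all tested probes were. At an unadjusted p under 0.05 limma found 0 of them, against 11.8% of all tested probes, and the methods' t-test 1, *Ezh2*, against 9.09%. The summed signal of 6 erythroid genes was 219000 to 461000 in Ftx KO males and 153000 to 190000 in WT males, and its part in the *Ezh2* values was not tested. In females the *Ezh2* difference was -0.06 (interval -0.21 to 0.08, limma adjusted p = 0.502).

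The *Ezh2* signal moved with the slide. On slide 2 the 3 Ftx KO female eyes had a mean of 7739 and the 2 Ftx KO male eyes a mean of 7746, while the Ftx KO females of slides 3 and 4 had means of 9224 and 8815. Set against WT females, the Ftx KO females of slide 2 alone gave a log2 difference of -0.225 (limma adjusted p = 0.0207). That fit called 35.2% of all tested probes. Those of slide 3 alone gave 0.03 (limma adjusted p = 0.744) and those of slide 4 alone -0.04 (limma adjusted p = 0.651). The single slides were chosen after the data were seen. The summed pigment signal was 9980 to 30300 in the slide 2 eyes of Ftx KO females and 2190 to 17000 in those of the other slides, and its part in the *Ezh2* values was not tested.

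*Ezh1*, the second H3K27 methyltransferase, which is best known from cells that have stopped dividing, had 4 probes. The representative probe ran from 2601 to 2965 in WT females, 2710 to 3202 in WT males, 2757 to 3044 in Ftx KO males and 2582 to 3721 in Ftx KO females, and the 4 ranges overlapped. Its female difference was 0.03 (interval -0.15 to 0.20) and its male difference 0.02 (interval -0.20 to 0.24). The other tested probe (A_55_P2155942, chr11:101052680-101052739) gave 0.01 in females and 0.06 in males. The dimmer pair, A_55_P2017086 and A_55_P2017090, had mean signals of 21.6 and 17.9 in WT females and were well above background on 10 and 14 of the 22 Ftx KO female arrays. Neither is read as a level of *Ezh1* here.

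*Eed*, whose product reads the methyl mark and stimulates the enzyme, was among the steadiest probes (A_55_P2039611, NM_021876, chr7:97103264-97103323, minus strand). Its signal was 9982 to 10770 in WT females, 10470 to 11950 in WT males, 10190 to 11040 in Ftx KO males and 9941 to 11840 in Ftx KO females. The ranges overlapped in all comparisons. The female difference was 0.07 (interval -0.04 to 0.18, limma adjusted p = 0.309) and the male difference -0.06 (interval -0.20 to 0.08). Across the 11 Ftx KO female eyes the SD was 0.07 on the log2 scale, and 4.23% of the tested probes had a lower one.

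Next, *Jarid2*, the accessory subunit that binds ubiquitinated H2A (A_52_P370203, NM_021878, chr13:45016247-45016306, plus strand), had 1187, 1492 and 1480 in WT females and 1216 to 1641 in Ftx KO females. WT female eye 1 was the lowest of all 20 eyes for it, as it was for *Suz12*. The female difference was 0.03 (interval -0.17 to 0.23, limma adjusted p = 0.831) and became -0.08 without that eye. Ftx KO males, at 1290 to 1631, spanned the WT males, at 1432 to 1524. Among Ftx KO females the mean was 1542 on slide 2, 1299 on slide 3 and 1433 on slide 4, the reverse of the order of *Ezh2* over the same slides.

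*Rnf2*, the main ubiquitin ligase of PRC1 (A_51_P382253, NM_011277, chr1:153316987-153317046, minus strand), had a signal of 3811 to 4066 in WT females and 3504 to 4376 in Ftx KO females, with medians of 3926 and 3876. Its female difference was -0.02 (interval -0.16 to 0.12, limma adjusted p = 0.826) and its male difference 0.05 (interval -0.12 to 0.22). The related ligase *Ring1* (A_51_P455266, NM_009066, chr17:34158164-34158223, minus strand) was below the minimum but well above background on every array. Its signal was 435, 405 and 361 in WT females, 352, 401 and 355 in WT males and 338, 367 and 380 in Ftx KO males, and in Ftx KO females it was 318 at the lowest, 406 at the median and 510 at the highest. The groups overlapped, and in a fit over all 55681 probes the female difference was 0.02 (interval -0.25 to 0.28, limma adjusted p = 0.942). Within Ftx KO females *Ring1* had a mean of 336 on slide 2, 476 on slide 3 and 398 on slide 4.

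**Figure D2:**
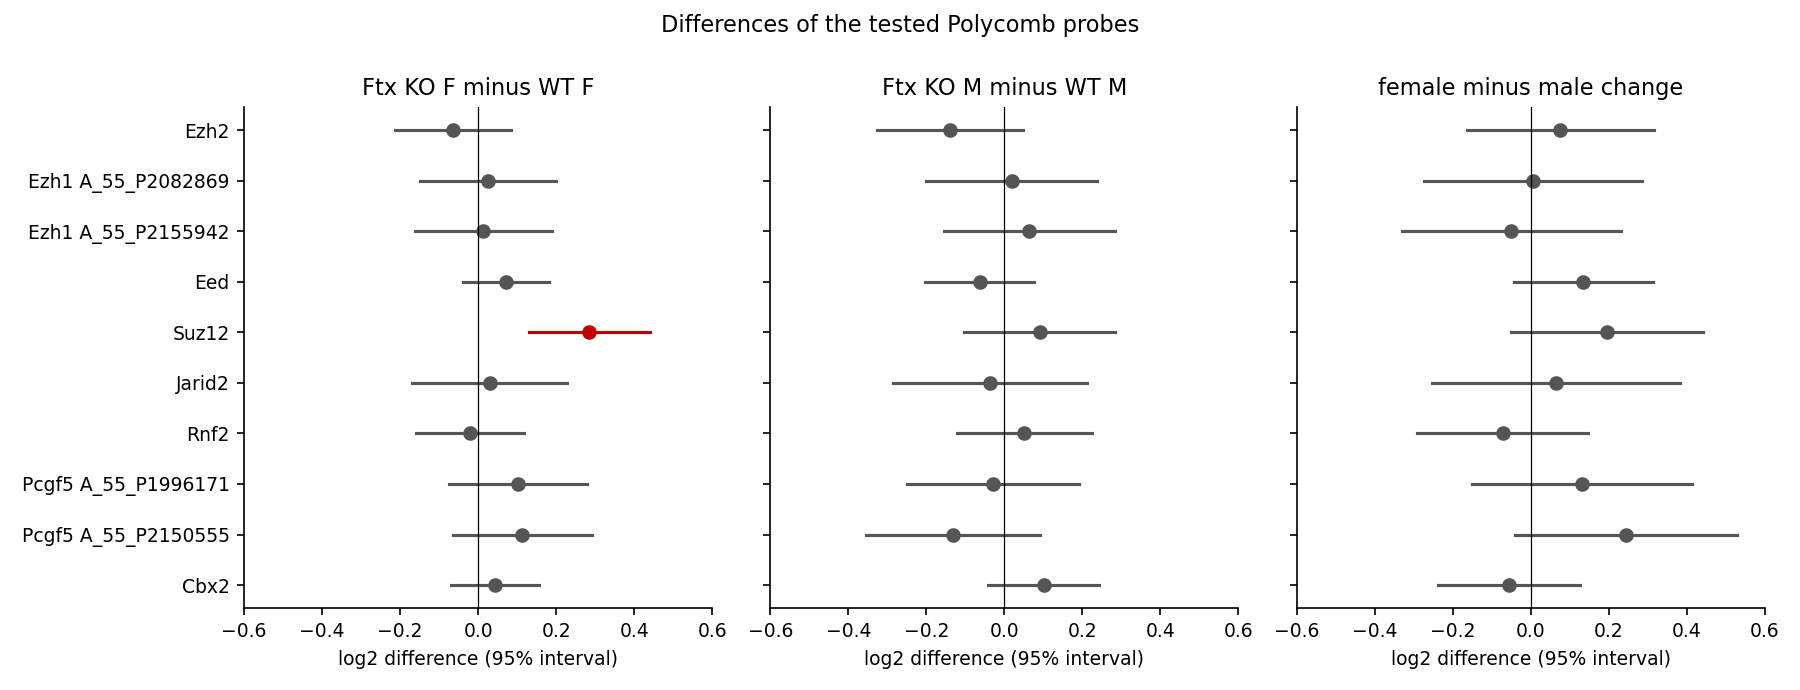
Log2 difference (points) with its 95% interval (lines) for the 10 tested member probes, in Ftx KO against WT females, in Ftx KO against WT males and for the female minus the male change, with calls at an adjusted p under 0.05 in red. The interval of Suz12 in females, 0.13 to 0.44, is the only called interval of the 30 shown.

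PCGF3 and PCGF5 set the kind of PRC1 that reaches the inactive X. The brighter *Pcgf3* probe (A_52_P373846, NM_172716, chr5:108931091-108931150, plus strand) was dim, with 136, 74.9 and 91.2 in WT females, 73.3, 61.2 and 122 in WT males and 140, 144 and 135 in Ftx KO males. All 3 Ftx KO male eyes were above the WT males, and Ftx KO females, from 85.5 to 154, overlapped WT females. How many of all probes separated the male groups was not counted. In the fit over all probes the male difference was 0.77 (standard error 0.26, interval 0.23 to 1.30, limma adjusted p = 0.226) and the female difference 0.27 (interval -0.16 to 0.69, limma adjusted p = 0.405). Neither passed the test. The other *Pcgf3* probe was not well above background on any array and gives no level.

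The brighter *Pcgf5* probe had 1839, 2350 and 2340 in WT females and 1997 at the lowest, 2372 at the median and 2723 at the highest in Ftx KO females, a difference of 0.10 (interval -0.07 to 0.28, limma adjusted p = 0.363). The overlapping probe gave 0.11 (interval -0.06 to 0.29, limma adjusted p = 0.316). Both were near WT in Ftx KO males, at -0.03 and -0.13. On the overlapping probe the 3 WT females, up to 1724, were all below the WT males, from 1778, a difference of -0.22 (interval -0.44 to 0.01, limma adjusted p = 0.506), in a comparison in which 0 of 10 member probes and 0.0712% of all tested probes were called. At an unadjusted p under 0.05, limma and the methods' t-test each found 0 member probes there, against 10.2% and 5.54% of all tested probes.

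The third *Pcgf5* probe gave another picture, and its values were looked at after those of the pair. Its signal was 76.5, 105 and 98.7 in WT females, 145, 141 and 121 in WT males and 163, 134 and 121 in Ftx KO males. In Ftx KO females it was 124 at the lowest, 161 at the median and 207 at the highest, and it was well above background on all 31 arrays. The WT females were lower than every eye of the other 3 groups, and the share of all probes with such a pattern was not counted. In the fit over all 55681 probes, in which 7.77% were called higher in Ftx KO females, its difference from WT females was 0.78 (standard error 0.16, interval 0.45 to 1.11, limma adjusted p = 0.00263). It passed in 12 of 16 other settings, but not with the slide as a fixed block or under the replicate block. WT females were also below WT males by this probe, with a difference of -0.55 (interval -0.96 to -0.14, limma adjusted p = 0.26), and the male change was 0.03 (interval -0.38 to 0.44). Between the sexes the change differed by 0.75 (interval 0.22 to 1.27, limma adjusted p = 0.332). The files assign this probe to another transcript record than the pair, and the 3 probes were kept apart. On slide 2 the Ftx KO females had a mean of 133 by it, on slide 3 one of 187 and on slide 4 one of 155.

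**Figure D3:**
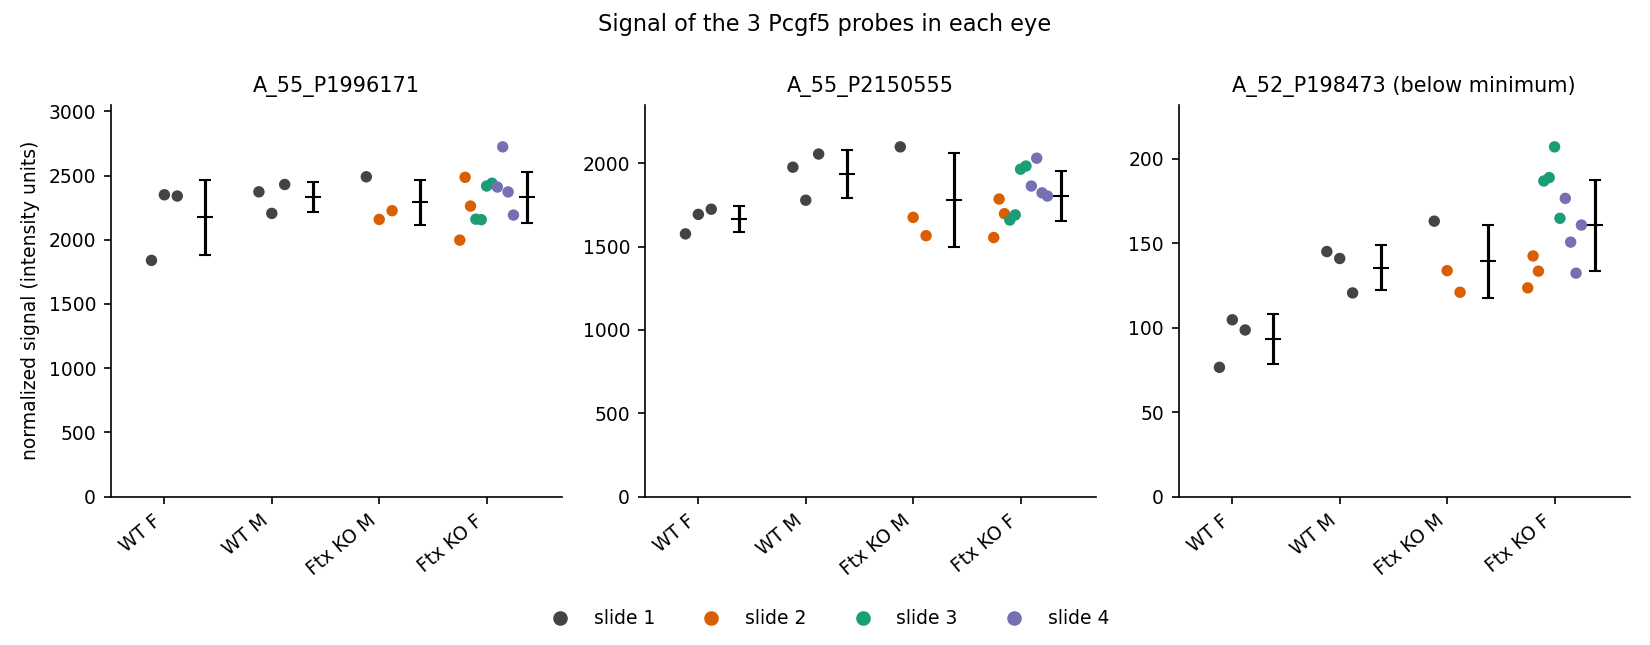
Normalized signal (intensity units, vertical axes from 0) of the 3 Pcgf5 probes in each of the 20 eyes, by group, with points coloured by slide and the mean and SD beside them. The WT females (WT F) overlap the Ftx KO females (Ftx KO F) on the first and the second probe and lie below them on the third, at up to 105 against at least 124.

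*Cbx2* (A_52_P13730, NM_007623, chr11:118892363-118892422, plus strand), the reader of the methyl mark in canonical PRC1, had a signal of 3509 to 3811 in WT females, 3382 to 3627 in WT males, 3584 to 3942 in Ftx KO males and 3382 to 4013 in Ftx KO females. The female difference was 0.04 (interval -0.07 to 0.16, limma adjusted p = 0.554). The male difference was 0.10 (interval -0.04 to 0.24, limma adjusted p = 0.591), and all 3 Ftx KO male eyes were above the WT male mean.

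Between Ftx KO females and Ftx KO males, 0 of the 10 member probes were called by limma, against 1.96% of all tested probes, and 0 were called among the 5 eyes of slide 2 alone, against 0.0569%. At an unadjusted p under 0.05 limma found 0, against 16.7% of all tested probes, and the methods' t-test 1, against 24.1%. The largest of these differences was that of *Ezh2*, higher by 0.13 in the females (interval -0.02 to 0.28, limma adjusted p = 0.362). The test of the female against the male change called 0 member probes and 0 of all 14052 by limma, with 0 member probes and 1946 of all probes at an unadjusted p under 0.05. The standard error of a member's log2 difference was 0.05 to 0.09 between the females and 0.07 to 0.12 between the males.

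The spread of each gene was compared between the paired arrays of an eye and between eyes, in Ftx KO females. The SD between the 2 arrays of an eye was 0.02 on the log2 scale for *Eed* and 0.10 for the representative *Ezh1* probe, with the others between them. The SD between the 11 eyes was 0.07 for *Eed*, 0.08 for *Cbx2*, 0.09 for *Rnf2*, 0.11 for *Suz12* and 0.15 for *Jarid2*. For every tested member probe the eyes differed more than the arrays of an eye, and for none was the SD between eyes above the median of all tested probes, 0.15. The *Suz12* difference in females, 0.29, was larger than either spread.

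**Figure D4:**
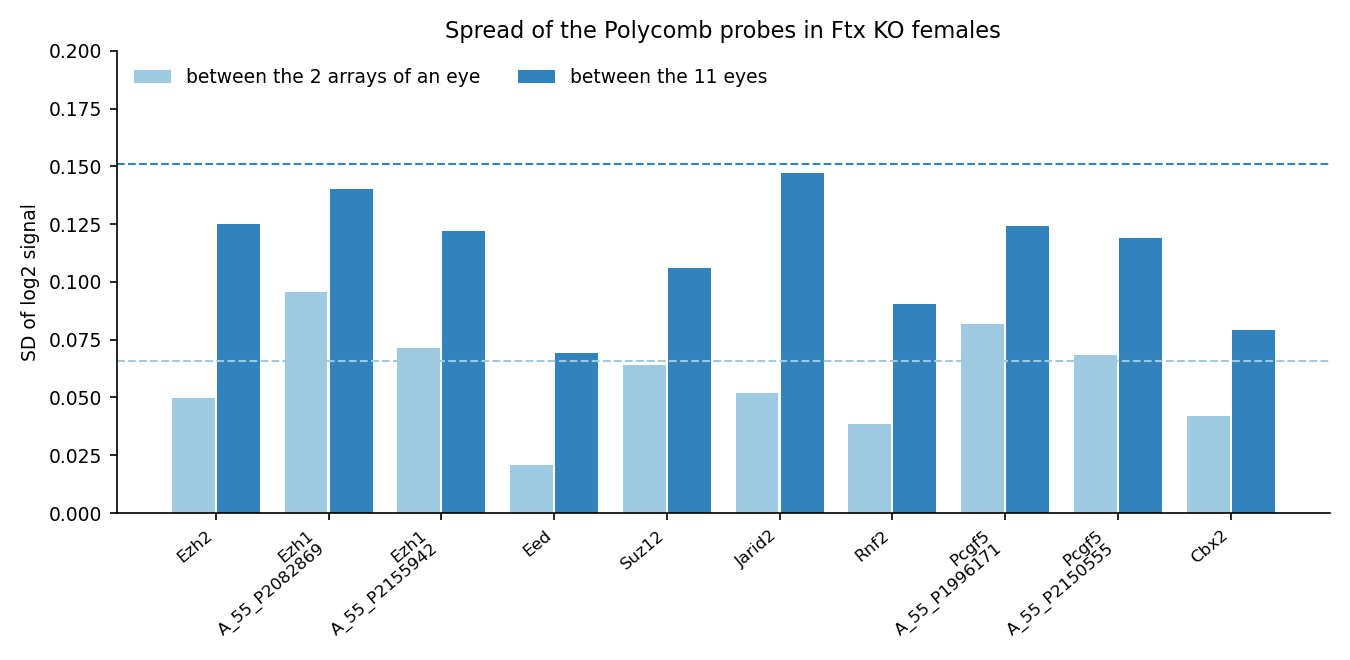
SD of the log2 signal (vertical axis from 0) between the 2 arrays of an eye (light bars) and between the 11 eyes (dark bars) of Ftx KO females for the 10 tested member probes, with dashed lines at the medians of all tested probes, 0.07 and 0.15. Eed has the lowest bars, at 0.02 and 0.07.

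Among the Ftx KO females the genes did not move as a block. Over the 8 representative probes the highest correlation across the 11 eyes was that of *Eed* with *Rnf2* (Pearson's r = 0.58), and the lowest was that of *Suz12* with *Jarid2* (r = -0.795), followed by *Ezh2* with *Jarid2* (r = -0.66). *Ezh2* and *Suz12* had r = 0.52. These are descriptions over 11 eyes that share 3 slides. Over all 20 eyes the probes of other named genes most like *Ezh2* were those of *Ifrd1* (r = 0.895), *Kntc1* (r = 0.88), *Slc7a6* (r = 0.865), *Tyw1* (r = 0.86) and *Arfgap2* (r = 0.86), out of 10596 compared.

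The lists also held the other genes of both complexes and genes that remove their histone marks, the H2A deubiquitinase with its partners and the H3K27 demethylases. Of 49 such genes on the array 39 had a tested probe, and in Ftx KO females 13 were higher, 6 lower and 20 not called, with a median difference of 0.09, against 35.0% called and a median of -0.01 over all tested probes. In the series table, which is not normalized between arrays, 14 were higher and 0 lower, against 20.2% called and a median of 0.25 over all tested probes. In Ftx KO males, between Ftx KO females and Ftx KO males, and for the female against the male change, 0 of the 39 were called, against 0.0213%, 1.96% and 0% of all tested probes. With the slide as a fixed block 0 of the 39 were called in females, against 0.0783% of all tested probes in that fit. With the slide as a random block 6 were called, against 17.5%, and without WT female eye 1 there were 10, against 22.5%. Without the 6 eyes rich in pigment or mesenchyme RNA 15 were called, 11 higher and 4 lower, against 28.4%.

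Beside *Jarid2*, which was not called, 5 accessory genes of PRC2 were tested and 5 were called, against 35.0% of all tested probes. *Rbbp7*, an X-linked histone chaperone, rose by 0.32 (standard error 0.06, limma adjusted p = 0.000936), *Aebp2* by 0.32 and *Mtf2*, a subunit that binds CpG islands, by 0.31, each higher than the WT female mean in 11 of 11 eyes. The signal of *Mtf2* was 5234 in WT females and 6512 in Ftx KO females on average. *Epop*, which the array names E130012A19Rik, fell by 0.24 and *Rbbp4*, the autosomal relative of *Rbbp7*, by 0.18.

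Canonical PRC1 moved both ways, in a comparison that called 35.0% of all tested probes. *Bmi1*, a PCGF subunit, rose by 0.51 (standard error 0.10, limma adjusted p = 0.00104), from a mean of 1882 in WT females to 2681. *Scmh1* fell by 0.37 and *Phc2* by 0.21, and 3 of the 7 tested genes of this list were not called. In variant PRC1 6 of 16 genes were higher and 1 lower, against 16.8% of all tested probes called higher and 35.0% called in all. The rises were led by *Pcgf6* at 0.47 (standard error 0.08, limma adjusted p = 0.000296), *Auts2* at 0.36 and *Rybp* at 0.28, and the fall was *Fbrsl1* at -0.28. Of 9 genes around the H2A deubiquitinase 3 were higher, *Asxl1* by 0.36, *Foxk2* by 0.30 and *Mbd5* by 0.21, and 0 were lower. Over all tested probes 35.0% were called and 16.8% called higher. The H3K27 demethylases *Kdm6a*, which is X-linked, and *Kdm6b* had differences of -0.07 and 0.07 (limma adjusted p = 0.78 and 0.586).

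**Figure D5:**
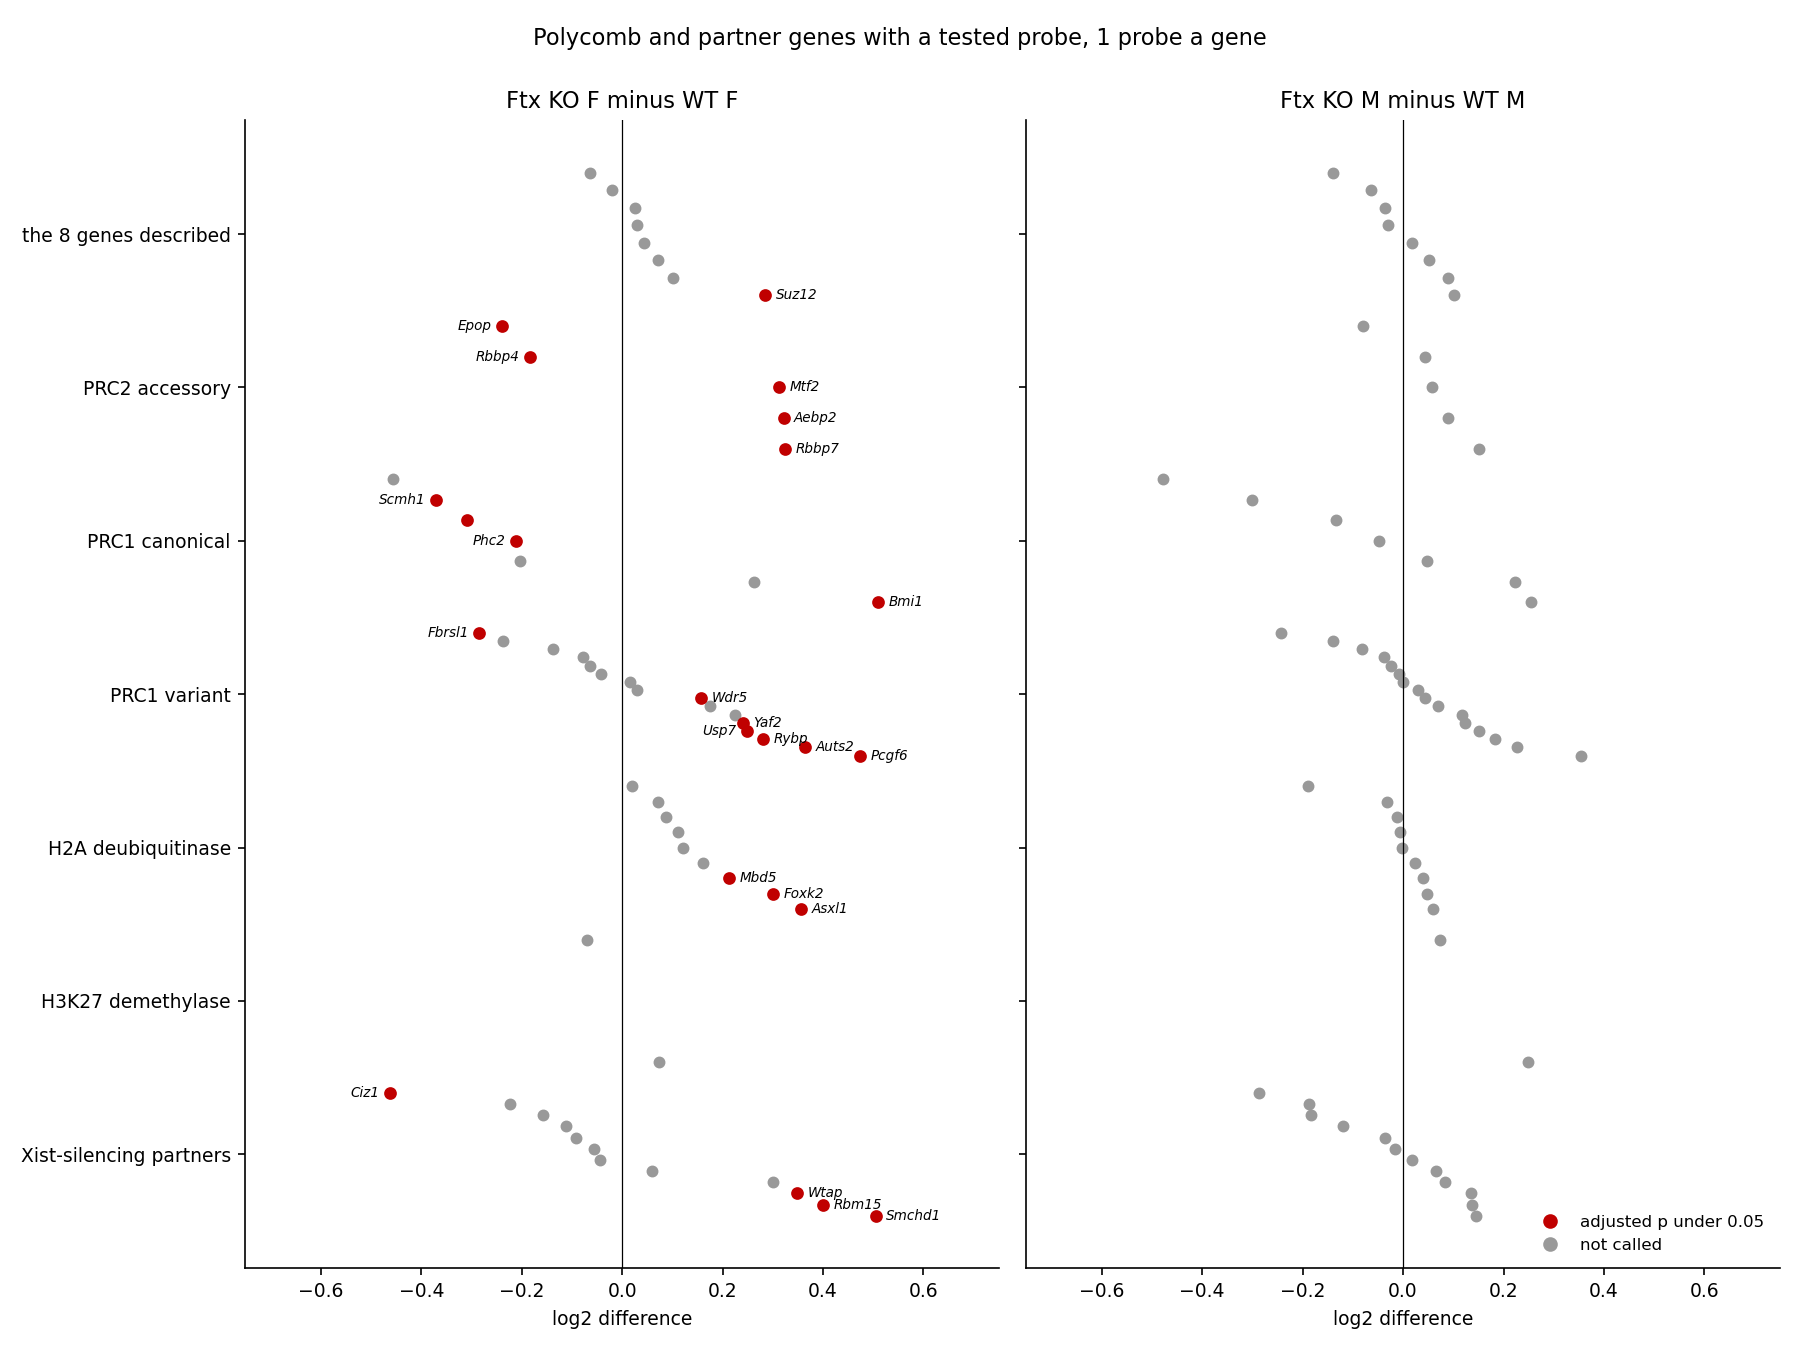
Log2 difference in Ftx KO against WT females (left) and in Ftx KO against WT males (right) for each gene with a tested probe, 1 representative probe a gene, in rows by list, with calls at an adjusted p under 0.05 in red and all but 1 of them named. In females 1 of the 8 genes described, 19 of the 39 other Polycomb genes and 4 of 12 partners of Xist RNA are red, against 35.0% of all tested probes. In males none is, against 0.0213%.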

How the data were processed

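RNA of 20 eyes was measured on 31 arrays. The authors deposited, for each spot, the background-subtracted intensity that Agilent Feature Extraction (11.0.1.1 per the file headers) gave, not normalized between arrays. The series table holds the same intensities, rounded, and served as an alternative. Probe positions are mm9, as in the files. RefSeq names (GRCm38.p6) were used for synonyms only.

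Intensities were normalized by quantile splines (100 quantiles, 5 iterations), as the study's methods name, in R 4.3.3. Flagged and control spots were left out, log2 values were averaged over the spots of a probe and then over the 2 arrays of a Ftx KO female eye, and probes with a mean above 500 in WT females were tested with limma 3.58.1 (moderated with a trend) over all 20 eyes, with Benjamini-Hochberg adjustment. The fit was tested on simulated data. Files were read with the data.table package (1.17.8) and figures drawn with matplotlib 3.10.9.

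The representative probe of a gene is that with the highest mean log2 signal. Of other lists, up to 3 rises and 3 falls with the largest change were named. The values of 1 gene that this rule picks are not reported here. The members and lists were chosen with earlier results of these data known. Nothing says whether eyes of a group came from separate litters, so p-values measure the spread between these eyes. The number of arrays limits the precision. The methods list 4 WT female eyes and 2 arrays for each eye; the arrays beyond those described were not analysed here. The alternatives were other normalizations, filters, tests and call rules, single arrays, blocks and left-out eyes.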

Additional observations from a re-analysis of the deposited data

Results flagged for a closer look

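A signal outside the main measurement was flagged for *Pcgf5*. Its probe A_52_P198473 lay below the signal minimum and so was not among the 10 tested member probes, yet its log2 signal exceeded that of WT females by 0.78 in Ftx KO females (standard error 0.16, adjusted p = 0.00263 by limma over all probes), and higher than the WT female mean in 11 of 11 eyes. With scaling to the 75th percentile the difference was 0.49 (limma adjusted p = 0.0464), and after normexp with quantile normalization 0.52 (limma adjusted p = 0.00356). It did not pass with the series table (0.74, adjusted p = 0.0884), the slide as a fixed block (0.88, 0.212), the replicate block (0.72, 0.0553) or the Ftx KO females of slide 2 alone (0.52, 0.0922), all by limma. The brighter, overlapping pair of *Pcgf5* probes was not called in the same fit.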

How the results depend on the processing

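The gain of *Suz12* in Ftx KO females kept its direction under all 23 other settings (0.229 to 0.582, limma adjusted p from 0.00149 to 0.131) and passed in 20. These 23 settings all use the same WT female eyes, which share a slide, so they are not separate checks of the direction. It did not pass with the slide as a fixed block (0.446), under the replicate block (0.295) or with the Ftx KO females of slide 2 alone (0.229), and leaving out WT female eyes in turn gave 0.245 to 0.323, the lowest without eye 1, which did not pass. The number of member probes called, 1, became 2 of 16 without the signal minimum (15.8% of all probes called) and 2 of 13 with a minimum of background alone (30%), 0 with the slide as a fixed block, 0 under the replicate block and 0 to 1 with a WT female eye left out (0 without eye 1). In males and between Ftx KO females and males, the methods' t-test unadjusted for many tests called 1 instead of 0, and slide 3 alone called 1 in the second (34.3% of all tested probes). The same eye numbers did not pair the eyes (correlations of their deviations from -0.595 to 0.30), and the replicate block changed no other call of a tested member probe. Of the other Polycomb genes, 19 were called (13 higher, 6 lower), 12 by fold and unadjusted p (26.7% of all tested probes), 0 with the slide fixed, 6 with it random, 9 under the replicate block (23%) and 10 to 16 with a WT female eye left out. The series table called 14 higher and 0 lower (20.2% of all tested probes), scaling to the 75th percentile 14 and 3 (34.4%). That table moved the median of all probes from -0.01 to 0.25 in females. The cause of these changes was not tested.

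Signs turned only for differences that passed under neither setting. In females the fixed block joins WT to Ftx KO eyes only through the Ftx KO males. It gave -0.0894 for *Cbx2*, -0.15 for *Ezh1* and -0.0844 for *Jarid2*. The random block gave -0.027 for *Ezh1* and -0.016 for *Jarid2*, and the replicate block -0.0218 for *Cbx2*, -0.049 for *Ezh1* and 0.0584 for *Rnf2*. Slide 2 alone gave -0.0251 for *Ezh1* and 0.0514 for *Rnf2*. Slide 3 alone gave -0.0185 for *Ezh1*, 0.0271 for *Ezh2*, -0.0864 for *Jarid2* and 0.00153 for *Rnf2*. The series table gave 0.211 for *Ezh2* and 0.269 for *Rnf2*, the 75th percentile 0.0253 for *Rnf2*, normexp -0.027 for *Jarid2*, and the eyes poor in pigment and mesenchyme RNA, chosen after seeing the data as were the single slides, -0.0048 for *Jarid2*. With a WT female eye left out the ranges were -0.037 to 0.0574 for *Ezh1*, -0.0783 to 0.0866 for *Jarid2*, -0.0151 to 0.162 for *Pcgf5* and -0.0437 to 0.00291 for *Rnf2*. In males the fixed block and slide 1 alone are the same estimate, since both set Ftx KO male eye 1 alone against the WT males of that slide. They gave -0.0645 for *Ezh1*, 0.0933 for *Pcgf5* and -0.0396 for *Rnf2*. The random block gave -0.000309, 0.0301 and -0.00146 for these genes. The series table gave -0.0522 for *Ezh1* and -0.0165 for *Rnf2*, normexp -0.00498 for *Ezh1*, and the 75th percentile 0.01 for *Jarid2* and 0.00288 for *Pcgf5*. With a male eye left out the ranges were -0.026 to 0.0944 for *Ezh1*, -0.124 to 0.0447 for *Jarid2*, -0.0907 to 0.0124 for *Pcgf5* and -0.0283 to 0.106 for *Rnf2*. The scan as a block equals the slide and was not run. The intervals rest on a spread pooled over all 20 eyes.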

Other observations

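Of 12 genes for partners of *Xist* RNA in silencing, all with a tested probe, 3 were higher and 1 lower in Ftx KO than in WT females, against 35.0% of all tested probes called, and 0 were called in males or for the female against the male change, against 0.0213% and 0% of all tested probes. *Smchd1*, a structural protein of the inactive X, rose by 0.51 (standard error 0.09, limma adjusted p = 0.00066), *Rbm15* by 0.40 and *Wtap* by 0.35, the last pair being parts of the RNA methylation machinery, each higher than the WT female mean in 11 of 11 eyes. *Ciz1*, which anchors *Xist* RNA, fell by 0.46 (limma adjusted p = 0.000317) in 11 of 11 eyes.

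Of 12 genes that Polycomb classically keeps silent, whose named examples were chosen after their values were seen, 0 reached the signal minimum and 4 were well above background on at least 50% of the arrays. In the fit over all probes 6 of the 12 were above and 6 below 0 in Ftx KO against WT females, and 1 was called (*Sox17*), against 15.8% of all probes. Most of the other probes were near background and are not read one by one. *Cdkn2a* was above background on 31 of 31 arrays, with mean signals of 208 in WT females and 258 in Ftx KO females (log2 difference 0.08, limma adjusted p = 0.933 over all probes). *Sox17*, also a marker of endothelium, was above background on 29 arrays, with 37.4 in WT females, 73.7 in WT males, 62.0 in Ftx KO males and 105 in Ftx KO females (log2 difference 1.62 in females, limma adjusted p = 0.00968 over all probes). The summed signal of 5 endothelium markers was 4940 to 7380 in Ftx KO females and 5100 to 5420 in WT females, and its part in the *Sox17* values was not tested. *Hoxa11* and *Gata4* were above background on 0 arrays.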
